A study of Mus musculus with 12 samples.

Results

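Pancreatic islets of leptin-deficient ob/ob mice were compared with islets of wild-type (WT) mice over all genes measured. This comparison takes the 3 arrays labelled OB and the 3 labelled WT, 6 of the 12 samples of the series, chosen by their class label alone. The ob/ob mice lacked functional leptin (genotype label OB KO) and kept PPARγ2, the PPARγ isoform best known from adipose tissue, and the WT mice kept both genes. All groups shared the mixed C57BL/6 x Sv129 background, a chow diet and, per the labels, an age of 4 weeks, although the study's text gives a slightly different age. The study describes female mice, islets freed with collagenase, picked by hand and cultured overnight, and RNA pooled from several mice for each array, so that an array is a pool and not an animal, and islets can carry exocrine, vascular and lymphoid tissue with them. The other 6 arrays are of islets without PPARγ2 (PPARγ2KO) and without both PPARγ2 and leptin (POKO), the label of the latter being DKO.

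Leptin is the fat-derived hormone that limits food intake, and its loss in the ob/ob mouse leads to overeating, obesity and a raised demand for insulin, which islets meet by enlarging. An islet is a small organ of hormone-secreting endocrine cells (β cells that make insulin, α cells that make glucagon, δ and PP cells), threaded by fenestrated capillaries and pericytes and surrounded by enzyme-secreting acinar tissue and ducts. Its secretory granules carry hormones together with granins, the acidic proteins that help granules form. Resident macrophages and a few lymphocytes are found in normal islets, and interferons released by such cells switch on a shared set of interferon-stimulated genes in many cell types.

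Each array is a 1-colour Agilent whole mouse genome array with 41174 probes, of which 25097 could be named and represent 17305 genes. Values are log2 normalized signals, and a gene stands for its probe of highest mean signal over the 12 arrays. A gene was called when limma's adjusted p was at most 0.05 and the log2 difference was at least 1 in size, and every error below is the standard error (SE) of that fit with n = 3 arrays a group. The spread behind each SE is pooled over all 12 arrays, and it can be larger or smaller than that of the 6 arrays compared. Cxcl9 had an SE of 1.47 with standard deviations of 0.41 in ob/ob and 0.02 in WT. Ltb had an SE of 0.48 with standard deviations of 0.34 and 0.89. Where no array of a group measured a gene well above background, the fold is a lower limit set by the lowest signal that was well above background on those arrays. Such a limit holds for the quantile-normalized processed signal only, and some alternative settings gave smaller differences. The smallest log2 difference over the settings tried was 1.52 for Ms4a1, 0.85 for Lat and 0.25 for Cxcr3, each under the limit given below. Where only some arrays of a group did, the difference rests partly on signals not above background and is not exact. Between 60.4% and 64.9% of the spots were well above background on the ob/ob arrays and between 54.3% and 57.5% on the WT arrays. Of all probes, 1467 (3.56%) were called higher and 786 (1.91%) lower in ob/ob, or 5.47% in either direction. Of the named genes 780 (4.51%) were higher and 376 (2.17%) lower, or 6.68% in either direction, with a median log2 difference of -0.06 over all named genes. The ob/ob and WT arrays did not overlap for 6774 of the 17305 named genes (39.1%), so groups that do not overlap are common here. The arrays of a replicate number shared a slide, and each genotype held the same position on all 3 slides (position 1 for WT, 2 for ob/ob), so that position and genotype cannot be told apart.

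Within slides 1, 2 and 3 the median difference was 1.82, 1.78 and 1.48 for the probes called higher and -1.24, -1.45 and -1.16 for those called lower. The calls depended on single arrays. Of the genes on the lists described below, 208 were called, and the number was 22 without ob/ob replicate 2, 28 without ob/ob replicate 3, 31 without WT replicate 1 and 11 without WT replicate 2. Each of these 4 arrays thus decided most calls, while all 2253 called probes kept the sign of their difference without it and the B cell list, for example, had a median of 3.61 without WT replicate 2 against 3.81. Normexp background correction did change the size of these differences, to a median of 0.65 with no call for the B cell list and of 0.49 with 1 call for the T cell list. That setting adds an offset of 50 to each signal, which makes differences of dim genes smaller by construction. The median processed signal was 30.7 to 40.6 on the ob/ob arrays and 20.9 to 27 on the WT arrays. Leaving out WT replicate 2 lowered the count most, and 36 of the 45 lists with a call then had none, among them MHC class II, sterol synthesis, amino acid, DNA replication, erythroid, duct and WNT genes. Of the 167 genes chosen by rule 147 were called, and Serpina7 (3.35), Aldh1a3 (2.74), Thrsp (2.73) and Dgat2 (1.36) were the 4 of them called with each of the 14 alternative settings tried.

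**Figure D1:**
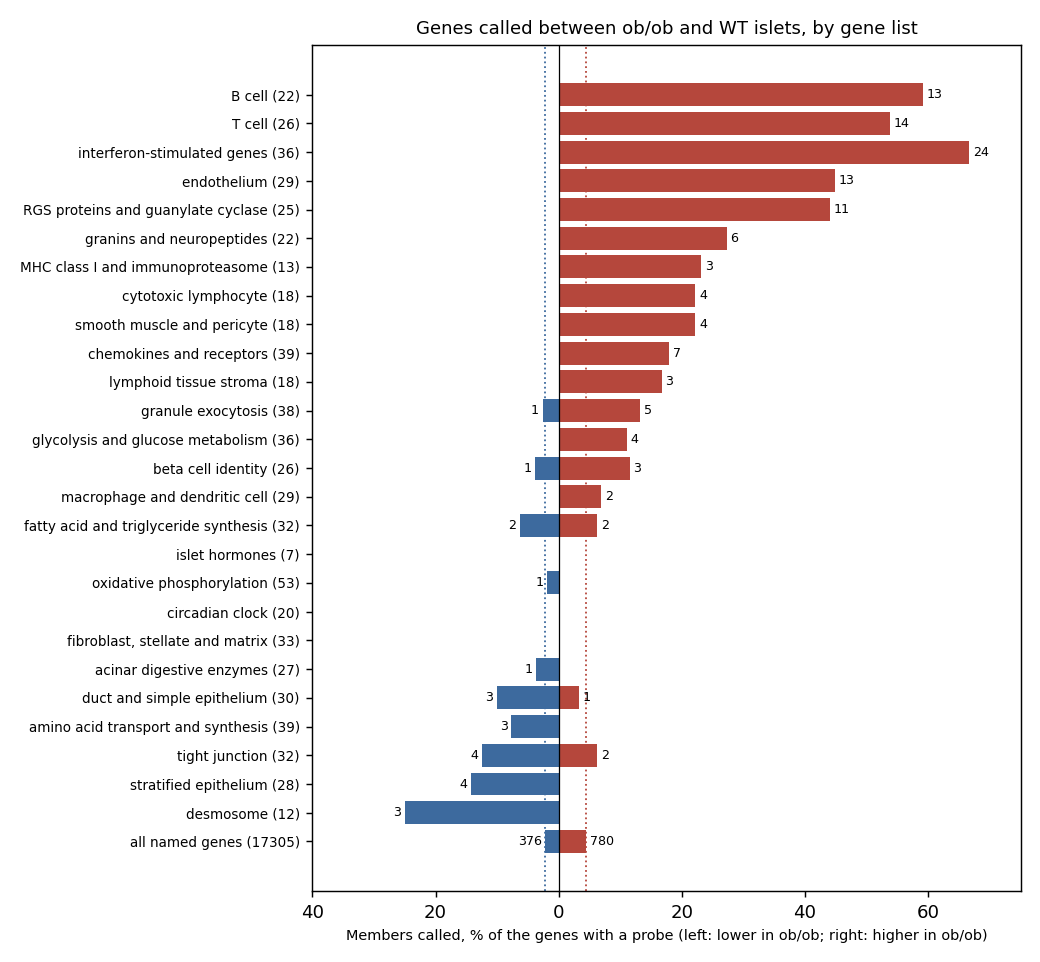
Share of the genes of each list called lower (left) or higher (right) in ob/ob than in WT islets, in % of the members with a probe (number in brackets), with the number called at each bar and dotted lines at the shares over all named genes. Of the lists drawn, the interferon-stimulated gene list has the largest share called higher (24 of 36) and the desmosome list the largest called lower (3 of 12).

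Of 22 B cell genes 13 were called higher and none lower (median log2 difference 3.81), and of 26 T cell genes 14 were called higher and none lower (median 2.70). Without WT replicate 2 no gene of either list was called, 12 of the 22 and 15 of the 26 were well above background on no WT array, and with the slide as a block the T cell count was 7. Cd79b signals were 11.45, 11.08 and 9.87 in ob/ob and 5.29, 4.34 and 5.67 in WT. This subunit of the B cell receptor was thus higher on every ob/ob array, by 5.70 ± 1.39 (adjusted p = 0.0371). Ms4a1 was at least 19.6-fold higher, at 9.16, 8.61 and 6.55 on the ob/ob arrays with no WT array well above background. Ms4a1 encodes CD20, a surface protein of mature B cells, and its adjusted p was 0.0433, or 0.0584 with the slide as a block. Pou2af1 was at least 21.7-fold higher, at 8.86, 8.70 and 7.19 on the ob/ob arrays with no WT array well above background. Pou2af1 encodes a coactivator of B cell transcription (adjusted p = 0.0379).

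On the T cell list Cd3d and Lat were both dimmer on the WT arrays than on the ob/ob arrays. For Cd3d the 3 ob/ob arrays gave 8.28, 8.41 and 9.87 and the 3 WT arrays 1.58, 1.04 and 4.66. Cd3d encodes a chain of the T cell receptor complex, and 1 of the 3 WT arrays measured it well above background. Its difference of 6.42 ± 1.42 (adjusted p = 0.0309) is therefore not an exact size. Lat was at least 13.9-fold higher, at 7.06, 7.24 and 8.53 on the ob/ob arrays with no WT array well above background. Lat encodes the adaptor that relays T cell receptor signals (adjusted p = 0.0217). Not every marker was called: the probe of Cd4 differed by -0.11 (adjusted p = 0.732) and that of Cd3e by -1.48 (adjusted p = 0.118), and neither was called.

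The ob/ob arrays differed from each other in which lymphocyte genes were high. Over the B cell list the mean log2 signal was 7.23, 6.78 and 5.94 on ob/ob replicates 1, 2 and 3, and over the T cell list it was 5.41, 5.70 and 6.92. Replicate 3 therefore had the lowest B cell and the highest T cell level of the ob/ob arrays, whereas the WT arrays lay between 3.11 and 3.37 for B cell genes and between 3.48 and 3.56 for T cell genes. Summed over the list, the B cell signal was 4745 to 10380 on the ob/ob arrays and 1699 to 1842 on the WT arrays, and 12 of the 22 genes, Ms4a1 among them, were well above background on no WT array. In RNA from whole islets, more cells of a type and more RNA per cell cannot be told apart.

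Cytotoxic, lymphoid tissue and macrophage genes gave fewer calls. Of 18 genes of cytotoxic lymphocytes 4 were called higher (2 with the slide as a block and 0 without WT replicate 2), among them Ccl5, a chemokine of activated T cells. Ccl5 read 12.71, 12.42 and 12.92 on the ob/ob arrays and 9.91, 10.07 and 11.13 on the WT arrays. The groups did not overlap, and the difference was 2.31 ± 0.40 (adjusted p = 0.0200). Gzmb was at least 7.22-fold higher, at 6.65, 5.87 and 7.48 on the ob/ob arrays with no WT array well above background. Gzmb encodes the killing protease granzyme B (adjusted p = 0.0458, 0.0540 with the slide as a block). The list labelled lymphoid tissue stroma also holds the lymphotoxin genes Ltb and Lta of lymphocytes. Of its 18 genes 3 were called higher (Ltb, Bst1 and Lta), so these calls are not of stromal genes alone. Ltb, which encodes a lymphotoxin that organizes lymphoid tissue, was the only one of them that was well above background on all 6 arrays. Ltb signals were 11.70, 11.53 and 12.18 in ob/ob and 8.60, 7.26 and 8.95 in WT. It was higher by 3.53 ± 0.48 (adjusted p = 0.0126), and the call was lost only when the 6 ob/ob and WT arrays were fitted alone (adjusted p = 0.0505).

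Of 29 genes of macrophages and dendritic cells 2 were called higher, a share of 6.9% close to the 4.51% of all named genes, and 0 were called without WT replicate 2. For Ctss the 3 ob/ob arrays gave 11.37, 10.73 and 10.64 and the 3 WT arrays 8.46, 8.83 and 9.47. Ctss encodes cathepsin S, the protease that prepares antigen for presentation, and rose by 2.00 ± 0.48 (adjusted p = 0.0361). C1qa read 10.19, 10.27 and 10.27 on the ob/ob arrays and 8.51, 8.56 and 9.63 on the WT arrays. C1qa, which encodes a chain of the complement component C1q, rose by 1.34 ± 0.31 (adjusted p = 0.0323). Over the list the mean signal was 6.61 on ob/ob replicate 1 and 5.88 and 5.83 on the others, against 5.14, 5.14 and 5.68 on the WT arrays.

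The 12 largest rises among called genes measurable on every array, with groups that did not overlap, were those of Cd79b, Coro1a, Cd52, Ptprc, Arhgap45, Itgb7, Rac2, Mzb1, Ltb, Sp110, Serpina7 and Ly86, with log2 differences from 3.34 to 5.70. Ptprc signals were 8.84, 8.91 and 9.39 in ob/ob and 4.39, 4.58 and 5.06 in WT. Ptprc encodes CD45, the surface phosphatase of all leukocytes, and was higher by 4.37 ± 0.94 (adjusted p = 0.0292). For Coro1a the 3 ob/ob arrays gave 11.51, 11.31 and 11.70 and the 3 WT arrays 6.78, 6.91 and 7.36. Coro1a, an actin-binding protein of blood cells, was higher by 4.49 ± 0.85 (adjusted p = 0.0242). Mzb1 and Ly86, both expressed in B cells, lost their call with the slide as a block (adjusted p = 0.0555 and 0.0538). Only Ltb and Serpina7 of these 12 genes were called without WT replicate 2. Serpina7 encodes thyroxine-binding globulin, a carrier of thyroid hormone. Serpina7 read 8.94, 10.22 and 9.97 on the ob/ob arrays and 6.22, 6.21 and 6.66 on the WT arrays. Serpina7 was 10.2-fold higher, a log2 difference of 3.35 ± 0.39 (adjusted p = 0.0111), and was called without each array in turn.

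Chemokine genes were called in a subset. Of 39 ligands and receptors 7 were called higher (Cxcl9, Cxcr3, Ccr6, Ccl28, Ccl4, Cxcr4 and Cxcl10) and none lower, with a median of 0.33 and none called without WT replicate 2. The counts were 4 higher and 3 lower, with a median of -0.01, when ob/ob replicate 1 was left out. Cxcl9 was at least 8.77-fold higher, at 7.15, 6.47 and 7.21 on the ob/ob arrays with no WT array well above background. Cxcl9 is an interferon-γ-induced ligand, and its call was lost with the slide as a block (adjusted p = 0.0543). Cxcr3 was at least 2.79-fold higher, at 4.83, 5.52 and 5.53 on the ob/ob arrays with no WT array well above background. Cxcr3 encodes the receptor of Cxcl9 and Cxcl10 on activated T cells (adjusted p = 0.027). Ccl28, a chemokine of mucosal epithelia, was higher by 2.04 ± 0.31 (adjusted p = 0.0159), and 2 of the 3 WT arrays measured it well above background.

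**Figure D2:**
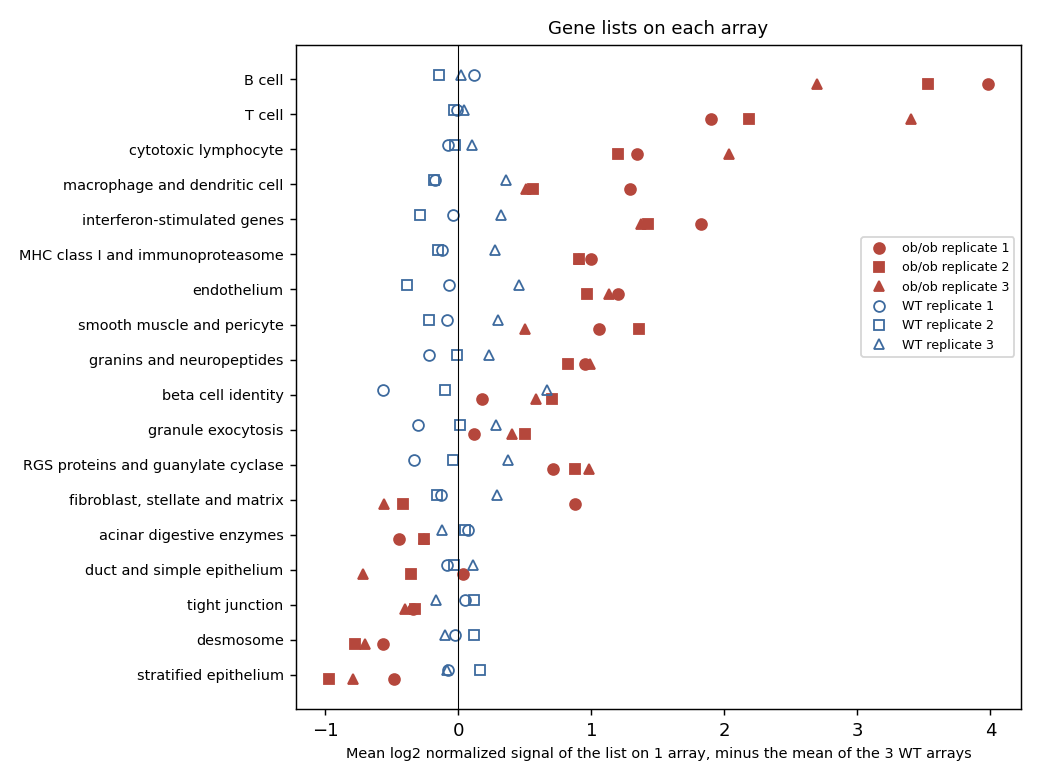
Mean log2 normalized signal of each gene list on each of the 6 arrays, drawn relative to the mean of the 3 WT arrays (filled symbols ob/ob, open symbols WT, with 1 symbol shape for each replicate number, which is also the slide). The ob/ob arrays lie above all WT arrays for the lymphocyte, interferon, endothelium and granin lists, and WT replicate 3 lies nearest to them for the endothelium and granin lists.

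Most interferon-stimulated genes were called higher in ob/ob islets. Of 36 such genes 24 were called higher and none lower, 35 had a positive difference and the median was 1.48, against 4.51% of named genes called higher in all. Without WT replicate 2 the count was 2, and without ob/ob replicate 2, ob/ob replicate 3 or WT replicate 1 it was 6, 8 and 7. The mean log2 signal of the list was 10.06, 9.67 and 9.61 on the ob/ob arrays and 7.95 to 8.56 on the WT arrays, so that the groups did not overlap. Unlike the lymphocyte genes, 34 of the 36 were well above background on all 6 arrays.

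Ifi27l2a signals were 12.18, 11.49 and 11.47 in ob/ob and 8.15, 8.11 and 9.02 in WT. Ifi27l2a, an interferon-induced membrane protein, was higher by 3.29 ± 0.68 (adjusted p = 0.0271). For Iigp1 the 3 ob/ob arrays gave 8.81, 8.08 and 8.45 and the 3 WT arrays 5.74, 5.39 and 5.79. Iigp1 belongs to the immunity-related GTPases that attack the vacuoles of intracellular parasites, and was higher by 2.81 ± 0.58 (adjusted p = 0.0276). Zbp1 read 10.98, 10.35 and 10.23 on the ob/ob arrays and 7.96, 7.26 and 8.37 on the WT arrays. Zbp1, a sensor of Z-form nucleic acids, was higher by 2.66 ± 0.45 (adjusted p = 0.0188). On each of these genes the lowest ob/ob array exceeded the highest WT array by more than 1 log2 unit. Trim30a signals were 9.61, 8.72 and 8.98 in ob/ob and 6.48, 6.18 and 6.89 in WT. Trim30a was higher by 2.59 ± 0.35 (adjusted p = 0.0125), and its call was lost only without WT replicate 2 (adjusted p = 0.0507).

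Promoter sequences of these genes are shown because interferon acts on them through a known element. The interferon-stimulated response element has the core GAAANNGAAA, the letters searched for here. RefSeq promoters (build GRCm38.p6, from 250 bases before to 50 bases after each start) were at hand for 26 of the 36 genes and were searched on both strands. The core was found in 16 of these 26 promoters (61.5%) and in 9 of the 15 belonging to called genes. It was found in 3.96% of the promoters of all 13831 named genes that had one, in 7.6% of those of genes called higher outside the list and in 1.43% of those of genes called lower. A match is a description of letters and not a shown binding site. The 250 bases before the start are printed for Ifit3, Isg15, Trim30a and Igtp, 4 called genes with the core, 5′ to 3′ on the gene's strand, with the letters of the core (or of its reverse complement) in capitals.
Ifit3 (chr19:34583279-34583528, + strand): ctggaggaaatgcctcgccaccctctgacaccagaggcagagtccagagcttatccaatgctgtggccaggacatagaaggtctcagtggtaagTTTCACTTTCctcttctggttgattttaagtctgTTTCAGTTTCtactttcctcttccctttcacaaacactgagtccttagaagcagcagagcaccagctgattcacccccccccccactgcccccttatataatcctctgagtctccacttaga
Isg15 (chr4:156200819-156201068, - strand): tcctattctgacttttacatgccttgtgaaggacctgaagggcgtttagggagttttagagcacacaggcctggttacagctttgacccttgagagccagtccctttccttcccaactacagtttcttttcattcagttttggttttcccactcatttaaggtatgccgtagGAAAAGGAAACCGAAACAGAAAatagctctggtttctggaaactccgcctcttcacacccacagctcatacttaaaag
Trim30a (chr7:104465194-104465443, - strand): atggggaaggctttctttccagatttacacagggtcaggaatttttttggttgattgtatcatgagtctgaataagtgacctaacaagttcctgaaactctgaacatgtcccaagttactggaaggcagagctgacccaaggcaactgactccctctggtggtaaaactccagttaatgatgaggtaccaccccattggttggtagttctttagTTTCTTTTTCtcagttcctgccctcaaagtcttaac
Igtp (chr11:58199306-58199555, + strand): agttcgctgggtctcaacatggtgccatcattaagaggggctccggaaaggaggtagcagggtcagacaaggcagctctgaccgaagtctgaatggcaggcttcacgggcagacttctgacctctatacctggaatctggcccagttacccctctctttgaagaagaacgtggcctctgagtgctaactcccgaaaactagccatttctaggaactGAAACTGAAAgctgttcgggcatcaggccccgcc

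In the Ifit3 promoter 2 separate copies lay on the strand opposite to the gene, and in the Isg15 promoter 3 overlapping copies ended up as a single capital run. Ifit3, which binds foreign RNA together with its neighbour Ifit1, was higher by 2.55 ± 0.36 (adjusted p = 0.0141), and Isg15, a ubiquitin-like modifier, by 1.83 ± 0.50 (adjusted p = 0.0481). Igtp, another immunity-related GTPase, was higher by 1.90 ± 0.29 (adjusted p = 0.0159). The second element searched was a direct repeat bound by PPAR together with RXR, with the letters AGGTCANAGGTCA. It was found in 0.0578% of all promoters (8 genes) and in none of the called genes, of which 594 called higher and 280 called lower had a promoter, so that these letters are not in those windows.

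**Figure D3:**
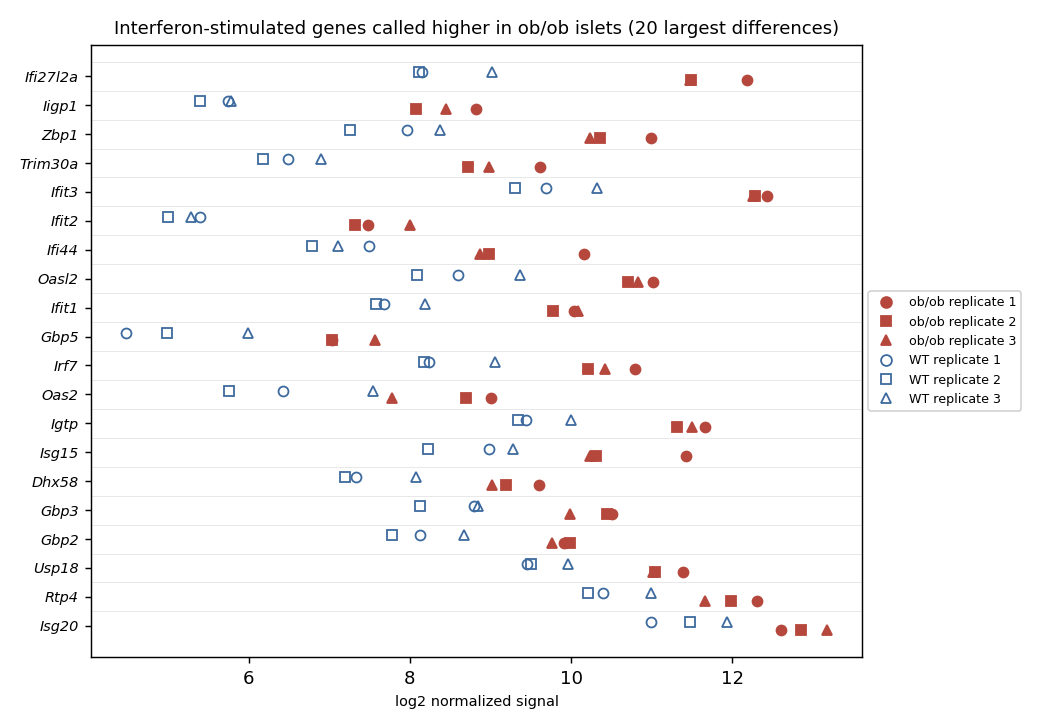
The 20 largest differences among the 24 interferon-stimulated genes called higher in ob/ob islets, as log2 normalized signal on each array (filled symbols ob/ob, open symbols WT, 1 symbol shape for each replicate number). The groups are separate for each gene drawn, but the genes were chosen as called on these arrays, and the groups are separate for 39.1% of all named genes. WT replicate 3 is the highest WT array for 18 of the 20.

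MHC class I presentation genes showed smaller differences. All 13 had a positive difference, 3 were called higher, and 8 passed without the fold criterion. For Psmb8 the 3 ob/ob arrays gave 11.90, 12.05 and 12.07 and the 3 WT arrays 9.92, 9.94 and 10.88. Psmb8, a subunit of the interferon-induced immunoproteasome, was higher by 1.76 ± 0.30 (adjusted p = 0.0200). B2m read 13.27, 12.72 and 12.67 on the ob/ob arrays and 11.34, 11.06 and 11.51 on the WT arrays. B2m, the light chain of class I molecules, was higher by 1.58 ± 0.26 (adjusted p = 0.0181). Psmb9, the partner subunit of Psmb8, was higher by 1.96 ± 0.32 (adjusted p = 0.0177). None of the 3 was called without WT replicate 2, with adjusted p up to 0.0795, 0.0730 and 0.0720 for Psmb8, B2m and Psmb9 over the settings tried. Casp1, the protease of inflammasomes, and Bcl2a1b, an anti-apoptotic relative of Bcl2, were the 2 of 28 apoptosis genes called, by 1.54 ± 0.41 (adjusted p = 0.0454) and 2.15 ± 0.50 (adjusted p = 0.0332). Calls made up 7.14% of the apoptosis list, against 4.51% of all named genes called higher. With the slide as a block the adjusted p of Casp1 was 0.0588.

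Of 29 endothelial genes 13 were called higher and none lower, 28 had a positive difference, and the median was 1.19. Without WT replicate 2 none was called. Icam2 signals were 10.18, 9.97 and 10.46 in ob/ob and 7.81, 7.70 and 8.30 in WT. Icam2, an adhesion molecule of endothelium and leukocytes, was higher by 2.27 ± 0.36 (adjusted p = 0.0172). For Cd34 the 3 ob/ob arrays gave 10.55, 10.78 and 10.81 and the 3 WT arrays 8.65, 8.38 and 9.28. Cd34, a surface protein of capillary endothelium and of blood progenitors, was higher by 1.94 ± 0.30 (adjusted p = 0.0160). Gpihbp1 read 9.90, 9.84 and 10.20 on the ob/ob arrays and 7.65, 7.73 and 8.93 on the WT arrays. Gpihbp1, which anchors lipoprotein lipase in capillaries, was higher by 1.88 ± 0.36 (adjusted p = 0.0249). For all of these the groups were separate, although WT replicate 3 came within 1 log2 unit of the lowest ob/ob array for Gpihbp1. Plvap signals were 11.08, 11.24 and 11.91 in ob/ob and 9.54, 8.72 and 10.83 in WT. Plvap forms the diaphragms of fenestrated capillaries such as those of the islet and was higher by 1.71 ± 0.45 (adjusted p = 0.0430), with WT replicate 3 only slightly below ob/ob replicate 1. The lymphatic markers on the list were not called: Lyve1 differed by 0.18 (adjusted p = 0.892) and Prox1 by -0.31 (adjusted p = 0.400).

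Of 18 genes of smooth muscle and pericytes 4 were called higher and none lower (median 1.01), and 1 of them, Kcnmb1, was called without WT replicate 2. For Rgs5 the 3 ob/ob arrays gave 9.38, 9.85 and 10.11 and the 3 WT arrays 8.07, 8.09 and 8.78. Rgs5, a G protein regulator that marks pericytes, was higher by 1.46 ± 0.23 (adjusted p = 0.0175). Notch3 read 8.03, 7.94 and 7.97 on the ob/ob arrays and 6.97, 6.70 and 7.20 on the WT arrays. Notch3, the Notch receptor of mural cells, was higher by 1.03 ± 0.13 (adjusted p = 0.0117). Kcnmb1 was at least 1.86-fold higher, at 4.43, 4.43 and 5.26 on the ob/ob arrays with no WT array well above background. Kcnmb1 encodes a subunit of the calcium-activated potassium channel of vascular smooth muscle (adjusted p = 0.0117). Of 33 fibroblast and matrix genes none was called, with or without the fold criterion, and their median was -0.11. This depended on single arrays: 4 were called lower without ob/ob replicate 1 (median -0.46), and the median was 0.23 without ob/ob replicate 3. By array, ob/ob replicate 1 had the highest mean signal of the 6 arrays (9.59) while the other ob/ob arrays had the lowest (8.30 and 8.15).

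Of the red blood cell genes 2 were called higher. Hba-a1 signals were 10.62, 11.18 and 12.42 in ob/ob and 8.37, 7.28 and 9.36 in WT. Hba-a1, an α-globin gene, was higher by 3.07 ± 0.66 (adjusted p = 0.0287), and Alas2, the haem synthesis enzyme of red cell precursors, was higher by 2.83 ± 0.76 (adjusted p = 0.0463) with 1 WT array above background and lost its call with the slide as a block (adjusted p = 0.0668). The other 7 of the 9 genes of the erythroid and platelet list were not called, and the median of the list was -0.21. Hba-a1 was lowest on WT replicate 2 and highest on ob/ob replicate 3, and the part of blood cells in the endothelial and leukocyte differences was not tested. Of the other cell type lists, 2 of 17 adipocyte genes were called higher, 2 of 21 glia and neuron genes were called higher and 1 lower, and 2 of 10 Reg and trefoil genes were called lower. In this order the shares were 11.8% higher, 9.52% higher and 4.76% lower, and 20% lower. Over all named genes they were 4.51% higher and 2.17% lower.

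Some endocrine secretory genes were called higher in ob/ob islets, and the 5 hormones were not called, although Ins1 and Ppy were with array weights (1.13 and 1.04) and without WT replicate 3 (1.31 and 1.23). For Ins1 the 3 ob/ob arrays gave 18.42, 18.62 and 18.58 and the 3 WT arrays 17.07, 17.39 and 18.38. Insulin 1 differed by 0.93 ± 0.28 (adjusted p = 0.0614). Ins2 was at 18.95 on each ob/ob array and between 18.90 and 18.95 on the WT arrays, at the top ranks that quantile normalization sets nearly equal (0.04 ± 0.06, adjusted p = 0.694). Glucagon (Gcg) differed by 0.25 ± 0.09 (adjusted p = 0.0976), somatostatin (Sst) by 0.40 ± 0.34 (adjusted p = 0.445) and pancreatic polypeptide (Ppy) by 0.84 ± 0.28 (adjusted p = 0.0789). With scaling to the 75th percentile in place of quantile normalization, the difference of Ins2 was -0.22 and that of Gcg -0.14. Summed over the hormone list, the signal was 933300, 974800 and 1333000 on WT replicates 1, 2 and 3. On the ob/ob arrays it was 1363000 to 1430000.

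Of 22 granins and neuropeptides 6 were called higher and none lower (Scg2, Cartpt, Chgb, Scg3, Nmb and Scg5), with a median of 1.24, and none was called without WT replicate 2. Scg2 read 13.48, 14.23 and 14.32 on the ob/ob arrays and 10.68, 11.25 and 12.18 on the WT arrays. Scg2, secretogranin II, was 6.23-fold higher, 2.64 ± 0.41 (adjusted p = 0.0165). Chgb signals were 17.00, 17.04 and 16.61 in ob/ob and 14.14, 14.60 and 15.50 in WT. Chgb, chromogranin B, was higher by 2.14 ± 0.35 (adjusted p = 0.0183). For Scg3 the 3 ob/ob arrays gave 13.76, 15.02 and 15.19 and the 3 WT arrays 12.28, 12.60 and 13.18. Scg3 was higher by 1.97 ± 0.39 (adjusted p = 0.0261). All 3 granins showed the same order on the WT arrays, with replicate 1 lowest and replicate 3 highest. Cartpt read 8.62, 8.43 and 8.30 on the ob/ob arrays and 5.72, 6.52 and 6.61 on the WT arrays. Cartpt, the precursor of the CART peptide of endocrine cells and neurons, was higher by 2.17 ± 0.49 (adjusted p = 0.0313).

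Of 26 genes of β cell identity 20 had a positive difference and 3 were called higher (Cpe, Pcsk1 and Nkx6-1), 1 was called lower (Hnf4a), and the median was 0.68. The count depended on single arrays, with no gene of this list called without WT replicate 2, but 14 called higher (median 1.08) without WT replicate 3 and 12 with array weights. Cpe signals were 15.46, 16.06 and 16.21 in ob/ob and 13.46, 14.09 and 14.96 in WT. Carboxypeptidase E (Cpe), which trims prohormones, was higher by 1.74 ± 0.35 (adjusted p = 0.0259). For Pcsk1 the 3 ob/ob arrays gave 12.001, 12.83 and 12.46 and the 3 WT arrays 10.003, 10.38 and 11.76. The proinsulin-cleaving convertase Pcsk1 was higher by 1.72 ± 0.44 (adjusted p = 0.0407), with WT replicate 3 close below the lowest ob/ob array. Nkx6-1 read 11.86, 12.25 and 12.41 on the ob/ob arrays and 10.54, 10.93 and 11.79 on the WT arrays. The β cell transcription factor Nkx6-1 was higher by 1.09 ± 0.28 (adjusted p = 0.0397). Hnf4a signals were 6.43, 6.13 and 5.97 in ob/ob and 7.70, 7.75 and 7.16 in WT. Hnf4a, a nuclear receptor of liver, gut and pancreas, fell by 1.36 ± 0.22 (adjusted p = 0.0183). Over the list the mean signal of WT replicate 3 (9.62) lay above that of ob/ob replicates 1 and 3 (9.13 and 9.54). Summed over the list, the signal was 73090, 111700 and 215000 on WT replicates 1, 2 and 3 and 207300 to 321800 on the ob/ob arrays. The pools can differ in their share of endocrine tissue, and its part in the differences of granin and β cell genes was not tested.

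Among 14 genes of α and δ cells, Gc, the vitamin D-binding protein that marks α cells, was the only one called higher. For Gc the 3 ob/ob arrays gave 11.90, 12.80 and 12.98 and the 3 WT arrays 9.53, 9.94 and 10.81. Its difference was 2.47 ± 0.37 (adjusted p = 0.0159). Kcnj3, a potassium channel subunit, was called lower (-2.04 ± 0.50, adjusted p = 0.0373), with 1 of 3 ob/ob arrays above background. These calls were 7.14% of the list in each direction, against 4.51% higher and 2.17% lower of all named genes. Aldh1a3 was the only one of 21 genes that β cells normally keep silent to be called higher, and it encodes a retinaldehyde dehydrogenase known as a marker of β cells that lose their identity. Aldh1a3 read 9.52, 9.53 and 8.92 on the ob/ob arrays and 6.43, 6.36 and 6.97 on the WT arrays. It was 6.66-fold higher, 2.74 ± 0.31 (adjusted p = 0.0103). Of that list 17 of 21 differences were below 0, and Mgst1 and Zyx were called lower (-1.37 ± 0.29, adjusted p = 0.0287, and -1.13 ± 0.19, adjusted p = 0.0186). The shares were 4.76% higher and 9.52% lower, against 4.51% and 2.17% of all named genes. All 21 genes were well above background on all 6 arrays, so the signals, that of Aldh1a3 included, need not come from β cells. Which cells gave them was not tested.

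Genes of G protein regulation and cyclic GMP were called higher in 11 of 25 cases and lower in none (median 1.05; 0 without WT replicate 2). Gucy2c signals were 8.89, 9.49 and 9.34 in ob/ob and 6.39, 6.74 and 7.77 in WT. Gucy2c, the guanylyl cyclase receptor of guanylin, was higher by 2.27 ± 0.36 (adjusted p = 0.0172). Both subunits of the nitric oxide-sensitive guanylyl cyclase were called, Gucy1b1 at 1.54 ± 0.30 (adjusted p = 0.0250) and Gucy1a1 at 1.05 ± 0.21 (adjusted p = 0.0270). For Rgs14 the 3 ob/ob arrays gave 6.56, 6.37 and 7.11 and the 3 WT arrays 4.11, 3.94 and 4.19. Rgs14 was higher by 2.60 ± 0.52 (adjusted p = 0.0266), with 2 of 3 WT arrays well above background. Rgs10 read 9.05, 8.91 and 9.73 on the ob/ob arrays and 7.22, 7.51 and 7.73 on the WT arrays. Rgs10 was higher by 1.74 ± 0.40 (adjusted p = 0.0321), and Rgs1, a regulator of lymphocytes, by 1.79 ± 0.49 (adjusted p = 0.0479), which the slide as a block took above the threshold (adjusted p = 0.0621).

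Exocytosis genes gave 5 calls up and 1 down among 38 (0 up without WT replicate 2). Syt4 signals were 8.57, 9.35 and 9.90 in ob/ob and 7.13, 7.56 and 8.01 in WT. Syt4, a synaptotagmin of secretory granules, was higher by 1.71 ± 0.33 (adjusted p = 0.0249). For Unc13d the 3 ob/ob arrays gave 6.74, 6.48 and 7.28 and the 3 WT arrays 5.28, 5.07 and 5.08. Unc13d, the granule-priming factor of cytotoxic lymphocytes, was higher by 1.69 ± 0.29 (adjusted p = 0.0202). Rasgrp1, a Ras activator of T cells and endocrine cells, was higher by 1.60 ± 0.40 (adjusted p = 0.0386). Rab27b read 6.18, 5.09 and 5.27 on the ob/ob arrays and 7.66, 7.76 and 6.70 on the WT arrays. Rab27b, a GTPase of granule docking, was lower by 1.86 ± 0.39 (adjusted p = 0.0276). The list of lipid and nutrient receptors gave 4 calls higher and none lower among 32 genes (median 0.12). All 4 calls were lost without WT replicate 2. Of these receptors, Adra2a, the inhibitory α2A adrenoceptor, was higher by 1.77 ± 0.38 (adjusted p = 0.0289), Ffar2, a receptor of short-chain fatty acids, by 1.57 ± 0.27 (adjusted p = 0.0205), and Casr, the calcium-sensing receptor, by 1.06 ± 0.24 (adjusted p = 0.0314), the last above background on 1 WT array. S1pr1, the sphingosine 1-phosphate receptor of lymphocytes and endothelium, was higher by 1.22 ± 0.26 (adjusted p = 0.0283).

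Among 41 ion channels Kcnip1, a potassium channel-interacting protein, and Trpm2, a cation channel of β cells and leukocytes, were called higher and Kcnj12 lower. These shares of 4.88% higher and 2.44% lower were near the 4.51% and 2.17% of all named genes. Kcnip1 signals were 8.86, 10.13 and 10.59 in ob/ob and 7.39, 7.78 and 8.12 in WT. The difference of Kcnip1 was 2.10 ± 0.39 (adjusted p = 0.0238). For Kcnj12 the 3 ob/ob arrays gave 4.00, 5.18 and 4.93 and the 3 WT arrays 6.63, 6.98 and 7.38. Kcnj12 encodes the inward rectifier Kir2.2 and fell by 2.30 ± 0.47 (adjusted p = 0.0271). In POKO against PPARγ2KO islets the same gene differed by -3.43 (adjusted p = 0.118), which did not pass. The glycosphingolipid list gave 3 calls of 23, all higher, among them the sialyltransferases St8sia3 (1.31 ± 0.31, adjusted p = 0.0352) and St8sia5 (1.27 ± 0.33, adjusted p = 0.0418).

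**Figure D4:**
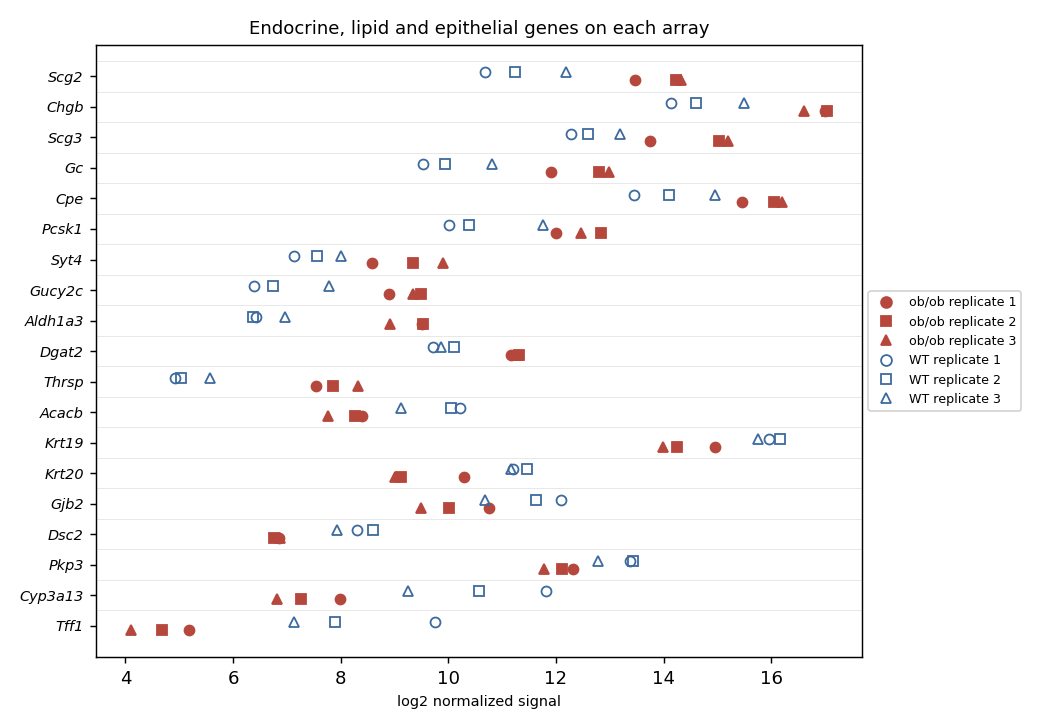
Log2 normalized signal on each array for secretory (Scg2 to Gucy2c), lipid (Dgat2, Thrsp, Acacb) and epithelial genes (Krt19 to Pkp3), with Aldh1a3, Cyp3a13 and Tff1 (filled symbols ob/ob, open symbols WT, 1 symbol shape for each replicate number). WT replicate 3 is the WT array nearest to the ob/ob arrays for the secretory genes, and the groups overlap only for Gjb2.

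Some epithelial junction genes were called lower in ob/ob islets. Of 12 desmosome genes 3 were called lower and none higher (median -0.80), of 28 genes of stratified epithelium 4 lower and none higher (median -0.73), and of 32 tight junction genes 4 lower and 2 higher (median -0.53), against 2.17% of named genes called lower in all. Without WT replicate 2, Dsc2 alone of the desmosome genes stayed called and none of the others did. Dsc2 read 6.86, 6.76 and 6.87 on the ob/ob arrays and 8.31, 8.60 and 7.94 on the WT arrays. Dsc2, a cadherin of desmosomes, fell by 1.45 ± 0.16 (adjusted p = 0.00771). Pkp3 signals were 12.32, 12.12 and 11.78 in ob/ob and 13.37, 13.43 and 12.77 in WT. Pkp3, a plakophilin of desmosomes, fell by 1.12 ± 0.20 (adjusted p = 0.0213). For Gjb2 the 3 ob/ob arrays gave 10.76, 10.02 and 9.49 and the 3 WT arrays 12.09, 11.64 and 10.69. Gjb2, the gap junction protein connexin 26, fell by 1.38 ± 0.38 (adjusted p = 0.0490), although ob/ob replicate 1 was above WT replicate 3. Krt17 read 11.20, 10.21 and 10.52 on the ob/ob arrays and 11.83, 12.28 and 11.76 on the WT arrays. Krt17, a keratin of stressed and basal epithelium, fell by 1.31 ± 0.29 (adjusted p = 0.0306).

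Of the claudins, Cldn8 fell by 1.26 ± 0.27 (adjusted p = 0.0300) and Cldn9 by 1.13 ± 0.26 (adjusted p = 0.0340). The 2 tight junction genes called higher were Jam2 (1.49 ± 0.31, adjusted p = 0.0277), a junction protein of endothelium, and Cldn15 (1.26 ± 0.29, adjusted p = 0.0319), above background on 1 WT array. Of 30 genes of ducts and simple epithelium 3 were called lower and 1 higher (median -0.44). Krt19 signals were 14.95, 14.24 and 13.99 in ob/ob and 15.96, 16.17 and 15.76 in WT. Krt19, the keratin of pancreatic ducts, fell by 1.57 ± 0.25 (adjusted p = 0.0173). For Krt20 the 3 ob/ob arrays gave 10.30, 9.12 and 9.01 and the 3 WT arrays 11.20, 11.46 and 11.16. Krt20 fell by 1.80 ± 0.35 (adjusted p = 0.0250). Pigr read 9.86, 9.19 and 8.78 on the ob/ob arrays and 7.37, 6.66 and 7.30 on the WT arrays. Pigr, the epithelial transporter of IgA, went the other way and was higher by 2.17 ± 0.37 (adjusted p = 0.0192). The mean log2 signal of the duct list overlapped between the groups, at 10.17, 9.78 and 9.42 on the ob/ob arrays and 10.06, 10.104 and 10.25 on the WT arrays.

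Acinar genes were near the top of the scale on every array. The 27 digestive enzyme and acinar genes were all well above background on all 6 arrays, their summed signal was 4365000 to 5028000 in ob/ob and 4907000 to 5242000 in WT, and Gp2, a zymogen granule protein, was the only one called. Gp2 signals were 14.97, 15.29 and 15.42 in ob/ob and 16.50, 16.61 and 16.08 in WT. It fell by 1.17 ± 0.20 (adjusted p = 0.0195). Exocrine RNA was therefore present in both groups, and its part in the epithelial differences was not tested.

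The 12 largest falls among called genes measurable on all arrays, with groups that did not overlap, were those of Tff1, Cyp3a13, Raet1e, Uts2, Kcnj12, Krt75, Nat8, Fam83e, Lamb3, Clic6, Homer2 and Slc25a43, from -3.60 to -1.93. With the slide as a block Uts2 and Fam83e lost their call (adjusted p = 0.0600 and 0.0683). Only Nat8 of these 12 genes was called without WT replicate 2. Normexp background correction took the call from Tff1, Uts2, Kcnj12, Krt75, Nat8, Fam83e and Slc25a43. For Tff1 the 3 ob/ob arrays gave 5.18, 4.67 and 4.11 and the 3 WT arrays 9.74, 7.89 and 7.13. Tff1, a trefoil peptide of mucous epithelium, fell by 3.60 ± 0.68 (adjusted p = 0.0240). Cyp3a13 read 7.98, 7.26 and 6.82 on the ob/ob arrays and 11.82, 10.58 and 9.26 on the WT arrays. Cyp3a13, a xenobiotic-oxidizing cytochrome P450 and the only one of 20 such genes called, fell by 3.20 ± 0.58 (adjusted p = 0.0217). Raet1e signals were 5.40, 5.67 and 6.81 in ob/ob and 8.52, 9.71 and 8.77 in WT. Raet1e, a ligand of the NKG2D receptor of killer cells, fell by 3.04 ± 0.50 (adjusted p = 0.0181). For Nat8 the 3 ob/ob arrays gave 5.05, 5.21 and 5.23 and the 3 WT arrays 7.69, 7.13 and 6.82. Nat8, an N-acetyltransferase, fell by 2.05 ± 0.27 (adjusted p = 0.0125), and was lost only with normexp background correction. Fgfbp1 was at least 6.01-fold lower, at 5.61, 5.52 and 5.91 on the WT arrays and not well above background on any ob/ob array. Fgfbp1 encodes a carrier of fibroblast growth factors (adjusted p = 0.0126). Its call was lost only with normexp background correction, and its smallest difference over the settings tried was -0.24. P2rx5 was at least 2.73-fold lower, at 4.77, 4.83 and 3.73 on the WT arrays and not well above background on any ob/ob array. P2rx5 encodes an ATP-gated channel (adjusted p = 0.0179). Normexp background correction and leaving out WT replicate 2 were among the settings that lost its call, and its smallest difference was -0.16.

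Of 32 genes of lipid synthesis 2 were called higher and 2 lower (6.25% each, against 4.51% and 2.17% of all named genes), with a median of -0.28. Thrsp read 7.54, 7.85 and 8.31 on the ob/ob arrays and 4.91, 5.04 and 5.57 on the WT arrays. Thrsp (Spot 14), which is switched on with lipogenesis by thyroid hormone, insulin and glucose, was 6.62-fold higher, 2.73 ± 0.23 (adjusted p = 0.00527). Dgat2 signals were 11.16, 11.31 and 11.29 in ob/ob and 9.72, 10.096 and 9.86 in WT. Dgat2, which adds the last fatty acid to triglyceride, was higher by 1.36 ± 0.15 (adjusted p = 0.00962), and its 2 dimmer probes differed by 0.96 and 0.48, neither past the fold. The second probe of Acacb was not well above background on any of the 6 arrays. For Acacb the 3 ob/ob arrays gave 8.40, 8.27 and 7.76 and the 3 WT arrays 10.22, 10.05 and 9.12. Acacb, the acetyl-CoA carboxylase whose product restrains fatty acid oxidation, fell by 1.65 ± 0.32 (adjusted p = 0.0246). Gpam read 4.70, 4.72 and 4.83 on the ob/ob arrays and 6.14, 5.94 and 5.22 on the WT arrays. Gpam, the first enzyme of glycerolipid synthesis, fell by 1.014 ± 0.26 (adjusted p = 0.0397). Both genes called higher were called without each array in turn, and neither gene called lower was called without WT replicate 2. The lipogenic regulator Srebf1 differed by -0.06 (adjusted p = 0.779) and fatty acid synthase (Fasn) by -0.99 (adjusted p = 0.034), which missed the fold criterion. Pparg itself differed by 0.41 ± 0.35 (adjusted p = 0.445).

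Fatty acid oxidation and respiration gave few calls, at shares near or under those of all named genes (4.51% higher and 2.17% lower). These shares were 2.33% in each direction for oxidation, and 0% higher and 1.89% lower for oxidative phosphorylation. Of 43 genes of oxidation 1 was called in each direction: Slc25a20, the carnitine carrier of mitochondria, was higher by 1.02 ± 0.13 (adjusted p = 0.0125), and Acot5, a peroxisomal thioesterase, was lower by 1.81 ± 0.47 (adjusted p = 0.0405), with a block adjusted p of 0.0596. Of 53 genes of oxidative phosphorylation 1 was called (Cox10, lower by 1.04 ± 0.22, adjusted p = 0.0280), the differences ranged from -1.04 to 0.64 and the median was 0.03. Of 36 genes of glucose metabolism 4 were called higher and none lower. By adjusted p alone 7 were higher and 6 lower, and scaling to the 75th percentile gave 3 higher and 2 lower. Fbp2 signals were 8.06, 8.83 and 8.74 in ob/ob and 6.69, 7.05 and 6.46 in WT. Fbp2, a fructose bisphosphatase, was higher by 1.81 ± 0.24 (adjusted p = 0.0125). Slc2a3, the glucose transporter GLUT3, was higher by 1.37 ± 0.27 (adjusted p = 0.0251), Pfkm by 1.16 ± 0.30 (adjusted p = 0.0405) and Aldoc by 1.101 ± 0.24 (adjusted p = 0.0292), and Fbp2 alone was called without WT replicate 2.

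Amino acid genes gave 3 calls of 39, all lower (7.69%, against 2.17% of all named genes). For Shmt1 the 3 ob/ob arrays gave 5.40, 5.20 and 5.19 and the 3 WT arrays 6.79, 6.77 and 6.26. Shmt1, the cytosolic enzyme that takes one-carbon units from serine, fell by 1.35 ± 0.21 (adjusted p = 0.0165). Cbs read 9.37, 9.04 and 9.12 on the ob/ob arrays and 10.26, 10.46 and 10.11 on the WT arrays. Cbs, which starts the conversion of homocysteine to cysteine, fell by 1.098 ± 0.20 (adjusted p = 0.0214), and the glutamine transporter Slc38a3 fell by 1.12 ± 0.26 (adjusted p = 0.0347). With the slide as a block 7 were called lower, none was without ob/ob replicate 2, ob/ob replicate 3, WT replicate 1 or WT replicate 2, and without WT replicate 3 the count was 9 lower and 3 higher. Of 39 antioxidant genes Gpx3, a secreted glutathione peroxidase, was higher by 1.94 ± 0.40 (adjusted p = 0.0276), and Ttpa, the tocopherol transfer protein, was lower by 2.00 ± 0.46 (adjusted p = 0.0325) with 2 of 3 ob/ob arrays above background. The number called lower was 9 without ob/ob replicate 1, 7 with array weights and 5 with scaling to the 75th percentile. No antioxidant gene was called without WT replicate 2. The antioxidant shares of 2.56% in each direction were under or near the 4.51% higher and 2.17% lower of all named genes. Of 34 endoplasmic reticulum chaperone and stress genes only Creld2 was called (1.14 ± 0.27, adjusted p = 0.0342), although 27 differences were positive, and the mean signal was 11.50, 11.94 and 12.26 on the ob/ob arrays while the WT arrays lay between 11.52 and 11.53. The share of chaperone and stress genes called higher was 2.94%, under the 4.51% of all named genes. The number called higher was 5 without ob/ob replicate 1 or with array weights, 4 without WT replicate 3 and 0 without WT replicate 2.

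Genes tied to islet growth gave scattered calls. Of 24 genes of the prolactin and serotonin response 3 were called higher and 2 lower (12.5% and 8.33%, against 4.51% and 2.17% of all named genes). Tnfrsf11b signals were 8.26, 8.63 and 9.32 in ob/ob and 6.34, 6.73 and 6.81 in WT. Tnfrsf11b, the decoy receptor osteoprotegerin, was 4.32-fold higher, 2.11 ± 0.27 (adjusted p = 0.0124), and was called without each array in turn. Htr2b, the serotonin receptor of islets in pregnancy, fell by 1.60 ± 0.41 (adjusted p = 0.0415). Of 44 genes of DNA replication and mitosis 4 were called higher and none lower (median 0.28, 2 with the slide as a block). Mki67 read 7.68 to 8.0 on the ob/ob arrays and 5.75 to 6.73 on the WT arrays. Mki67, the gene of the proliferation marker Ki-67, was higher by 1.81 ± 0.30 (adjusted p = 0.0181). The licensing factors Mcm2 to Mcm7 gave no call, with differences from -0.66 to 0.57.

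Signalling lists gave few calls, at shares near those of all named genes. For Inhbb the 3 ob/ob arrays gave 11.24, 11.43 and 11.68 and the 3 WT arrays 9.43, 9.49 and 10.20. Inhbb, the activin βB subunit, was higher by 1.74 ± 0.26 (adjusted p = 0.0159). Grem1 was at least 3.90-fold higher, at 6.77, 5.65 and 4.90 on the ob/ob arrays with no WT array well above background. Grem1 encodes an antagonist of bone morphogenetic proteins (adjusted p = 0.0416), and its call was lost without any 1 of the 6 arrays (adjusted p up to 0.118). Dusp6 read 11.72, 11.67 and 11.83 on the ob/ob arrays and 10.16, 10.24 and 10.70 on the WT arrays. Dusp6, a phosphatase that dampens ERK signalling and is induced by it, was higher by 1.38 ± 0.24 (adjusted p = 0.0206). Klf6 signals were 12.10, 12.25 and 12.54 in ob/ob and 13.59, 13.55 and 12.95 in WT. Klf6, an immediate early transcription factor, fell by 1.07 ± 0.25 (adjusted p = 0.0337). Of 45 genes of TGF-β and BMP signalling 2 were called higher and 1 lower, of 41 genes of WNT signalling 2 were called higher and none lower, and of 29 immediate early genes 2 were called higher and 1 lower. In this order the shares called higher were 4.44%, 4.88% and 6.9%, against 4.51% of all named genes. Those called lower were 2.22%, 0% and 3.45%, against 2.17%. None of 20 circadian clock genes was called, and Bhlhe41 alone passed the adjusted p (0.76, adjusted p = 0.0376).

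Among the 11 MHC class II genes 9 were called higher (none without ob/ob replicate 2, ob/ob replicate 3, WT replicate 1 or WT replicate 2, and 2 with normexp background correction, with medians of 2.75 to 3.18 in the fits without 1 of these arrays and of 0.595 with normexp, against 2.85), among 23 sterol synthesis genes 6 lower (0 to 9 over the fits without 1 array), and among 20 cyclins and CDKs 2 in each direction. No cyclin or CDK was called without ob/ob replicate 2, ob/ob replicate 3 or WT replicate 2. The counts were 5 higher and 2 lower without WT replicate 3. Leptin (Lep) was well above background on none of the 6 arrays (1.25 to 1.42), as is usual outside fat, so that it does not check the genotype labels. The leptin receptor probe was above background on 1 WT array and on no ob/ob array. Of the labels' tissue, islets, the defining hormones were present on every array at 14.49 or above (Ins1, Ins2, Gcg, Sst and Ppy).

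The same genotype step was made in islets without PPARγ2, where POKO was set against PPARγ2KO on 6 other arrays. Of the 1467 probes called higher in ob/ob, 1309 (89.2%) also had a positive difference there, and of the 786 called lower 592 (75.3%) had a negative one, against 41.9% positive and 58.1% negative over all probes. The sizes were smaller, with a median of 0.59 against 1.71 for the probes called higher and of -0.25 against -1.29 for those called lower, and the second of each pair comes from the contrast that chose the probes. Both contrasts share the fit's estimate of spread over the 12 arrays, but no array. No more than 1 of these probes passed the call rule in POKO against PPARγ2KO, where 2 of 41174 probes (0.00486%) did. By an interaction contrast no probe had an adjusted p at or under 0.05, and 5721 had an unadjusted p under 0.05.

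The same values were counted by gene group, with no test between the groups. All 33 called genes of the lymphocyte and macrophage lists had a positive mean difference over the 3 arrays of POKO against PPARγ2KO, with a median of 2.17 against 4.06. The 4.06 is not an exact size. On the B and T cell lists 12 of 22 and 15 of 26 genes were well above background on no WT array. Within slides the sign did not hold, since all 33 were positive on slides 1 and 3 (medians 3.92 and 2.96) but 6 on slide 2 (median -0.83). The 27 called interferon and class I genes also had positive means, with a median of 0.45 against 1.90, and within slides 1, 2 and 3 positive differences were seen for 27, 23 and 11 of them (medians 0.98, 0.68 and -0.04). Among 23 called granin, exocytosis and G protein regulator genes 22 kept their sign (0.76 against 1.69), among 17 called endothelial and pericyte genes 12 did (0.36 against 1.46), and among 16 called epithelial genes 12 did (-0.17 against -1.21). Positive differences on slides 1, 2 and 3 numbered 22, 14 and 20 of the 23, 16, 13 and 7 of the 17, and 3, 8 and 8 of the 16. Chosen after their values were seen, genes with a difference of about 2 or more in POKO against PPARγ2KO included Aldh1a3 (2.10), Scg2 (2.09), Cartpt (2.92) and Ctss (1.99), whereas Acacb (-0.0047), Nkx6-1 (0.02) and B2m (0.05) lay near 0.

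**Figure D5:**
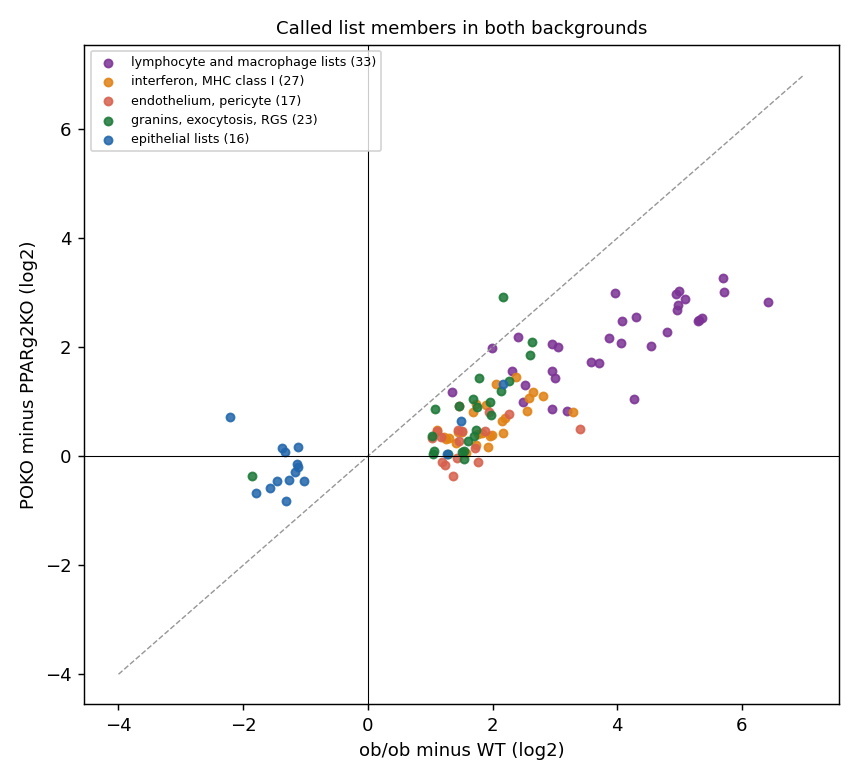
Log2 difference ob/ob minus WT (horizontal) against POKO minus PPARγ2KO (vertical) for the genes of 5 list groups that were called in ob/ob against WT, with the dashed line of equal values. The horizontal values chose the genes and the vertical ones come from 6 other arrays. All 33 lymphocyte and macrophage genes and all 27 interferon and class I genes lie above 0 on the vertical axis, which shows means of 3 slides, although 6 of the 33 were above 0 on slide 2 and 11 of the 27 on slide 3.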

How the data were processed

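RNA of 12 islet pools was hybridised to 1-colour (Cy3) Agilent arrays, and the deposited scanner files, made with Agilent Feature Extraction 10.1.1.1, hold spot intensity values that are background-subtracted but not normalized between arrays. The deposited series table holds the authors' normalized log2 values and was used as an alternative only. Here 1639 control spots and 919 outlier-flagged spots were left out, and 0 spots were saturated. Processed signals of 43379 spots were quantile-normalized over the 12 arrays, log2-transformed and averaged per probe. Differences were fitted with limma 3.58.1 (R 4.3.3; lmFit and eBayes, genotype only, 12 arrays), with Benjamini-Hochberg adjustment over 41174 probes, and the fit was tested on simulated data. Probe names came from RefSeq accessions matched to GRCm38.p6; 16077 probes stayed unnamed. Named genes are the 12 largest called rises and falls measurable on all 6 arrays with groups that did not overlap, the 6 largest lower limits in each direction where as many existed, up to 4 called genes of each list, the 2 brightest where fewer than 2 were called, and leptin, its receptor, PPARγ and the islet hormones; other genes were added after their values were seen, and some genes that the rule names are not reported here. The members and lists were chosen with earlier results of these data known. The normexp alternative used the median spot signal, since the files hold no mean signal, and an offset of 50. No source says that the 3 arrays of a group came from separate isolations. The p-values measure the spread between arrays within groups, pooled over all 12 arrays, those of POKO and PPARγ2KO included. The number of arrays limits the precision. Same-numbered ob/ob and WT arrays share a slide per the file headers, and their deviations from the group means correlated at 0.184, 0.085 and 0.07, so the fit with the slide as a block was run as an alternative, beside another scaling, a filter on dim probes, outlier spots kept, the 6 arrays alone, array weights, the deposited values, no fold criterion and leaving out each array in turn.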

Additional observations from a re-analysis of the deposited data

Results flagged for a closer look

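For 2 of the named genes the ob/ob minus WT difference and the POKO minus PPARγ2KO difference had opposite signs on all 3 slides. Serpinb5, which encodes the epithelial serpin maspin, was lower in ob/ob on each slide (-0.93, -3.90 and -1.79) and higher in POKO on each slide (0.73, 0.48 and 0.97). The interaction was 2.93 on the log2 scale, and its adjusted p of 0.266 in limma did not pass the threshold. Ppy, the pancreatic polypeptide of PP cells, was higher in ob/ob on each slide (1.04, 1.29 and 0.18) and lower in POKO on each slide (-0.37, -0.52 and -0.69). Its interaction was -1.37, with an adjusted p of 0.270. Neither difference between the backgrounds was therefore called.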

How the results depend on the processing

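Leaving out each array in turn gave 101 to 2369 probes called higher, 49 to 1613 lower and 11 to 311 list genes, against 1467, 786 and 208. Without ob/ob replicate 2 the counts were 215, 61 and 22, without ob/ob replicate 3 they were 233, 105 and 28, without WT replicate 1 they were 248, 132 and 31, without WT replicate 2 they were 101, 49 and 11, and without WT replicate 3 the probe counts were 2369 and 1613. Normexp background correction gave 286 higher, 86 lower and 83 list genes, the 6 arrays alone 423, 71 and 58, and array weights 2771, 1882 and 368. With no fold criterion 2530 probes were lower. Scaling to the 75th percentile shifted the median of all probes from -0.08 to -0.19 and gave 1923 higher and 667 lower, with 74.2% of calls higher in place of 65.1%. The filter on dim probes gave 1742 and 914, outlier spots kept 1463 and 787, and the deposited values 1481 and 695. The cause of these changes was not tested.

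With the replicate block 1405 probes were higher and 801 lower, with 1277 and 678 of them shared with the fit without it. Under the block 21 of 167 named genes lost their call and gave 7 T cell genes (14 without it), 2 cytotoxic genes (4) and 2 DNA replication genes (4), and 7 amino acid genes lower (3).

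No named gene that was called changed direction. Among those not called, the 75th percentile gave -0.22 for Ins2, -0.32 for Sycn, -0.14 for Cox6a1, -0.18 for Sec61b and -0.14 for Gcg. Leaving out each array in turn gave -0.0112 to 0.0202 for Sycn (below 0 without ob/ob replicate 2 or WT replicate 1), -0.0687 to 0.1122 for Sec61b (below 0 without either of these or WT replicate 2), -0.0549 to 0.5616 for Hspa5 (below 0 without ob/ob replicate 3) and -0.871 to 0.0058 for Cyp2s1 (above 0 without WT replicate 2).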
